A study of Mus musculus with 8 samples.

Results

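Accessible chromatin at the surrogate light chain genes Igll1, Vpreb1, Vpreb2 and Vpreb3 was compared with and without dTAG-13, the degrader of tagged EBF1, in mouse pro-B cells. The regions were those of the authors' deposited tables, 1 per line, whose centre lay within 100 kb of a protein-coding gene and nearest to 1 of these 4 genes (RefSeq spans, GRCm38). They came to 14 of 54239 distinct regions in line EBF1-dTAG_C and 14 of 55193 in line EBF1-dTAG_N, 28 of 109432 in all. In each line 4 regions belonged to Igll1, 1 to Vpreb1, 5 to Vpreb2 and 4 to Vpreb3. Overlapping regions of the lines were taken as 1 site, which gave 16 sites, 12 of them present in both lines.

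The assay was ATAC-seq, in which the transposase Tn5 inserts sequencing adapters into open chromatin. The cells were A-MuLV (Abelson virus) transformed pro-B cells, an immortalised model of an early B cell stage, and both lines carry modified exogenous genes in place of their own EBF1. The line names give EBF1 a dTAG degron, a tag through which dTAG-13 directs a protein to the proteasome, and EBF1 protein itself was not analysed here. The 4 groups were EBF1-dTAG_C with 6 h of 0.5 uM dTAG-13, EBF1-dTAG_C with DMSO, the solvent control, and EBF1-dTAG_N with dTAG-13 and with DMSO, of 2 libraries each, described as biological replicates. The labels do not say whether a line is a single clone. The DMSO libraries carry 0 h in their titles but 6 h of DMSO as their treatment, and the treatment was followed. Peak lists held 34202 to 39721 peaks after dTAG-13 and 40166 to 42139 with DMSO, and read depth is unknown. Of 9 pro-B genes, 6 to 7 had a peak at the gene in the dTAG-13 libraries and 6 to 8 in the DMSO libraries. Dntt had none in any library, and Rag1 and Rag2 had one mainly in DMSO libraries. Few genes of T and NK cells (0 to 1 of 6), of myeloid cells (0 to 2 of 5) and of erythroid cells (0 to 1 of 4) had one. Some recurred in EBF1-dTAG_C: the erythroid gene Epor in every library, and Cd3e, of the T and NK genes, in both dTAG-13 libraries. The myeloid gene Csf1r had one in both dTAG-13 libraries and in DMSO replicate 1 of that line. The part of these marker genes in the results was not tested.

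The surrogate light chain stands in for an immunoglobulin light chain before one has been made. Vpreb1 and Vpreb2 encode near-identical proteins that resemble a variable domain. Igll1 encodes lambda5, which resembles a joining segment and a constant domain. VpreB and lambda5 pair with the rearranged mu heavy chain and with Cd79a and Cd79b into the pre-B cell receptor, which tests the heavy chain and drives the pro-B to pre-B transition. Vpreb3 is a related protein that binds immunoglobulin chains inside the cell and is not a chain of the surface receptor. EBF1 is a transcription factor of early B cells, long known to bind and activate Igll1 and Vpreb1 together with E2A, the product of Tcf3.

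The promoters are shown because 2 of the 3 regions with the lowest log2 fold change in EBF1-dTAG_C lay at them. They are the 250 bases before each RefSeq start site (GRCm38.p6), 5′ to 3′ in the direction of the gene. Capitals mark the motifs CCCNNGGG, the core of the EBF1 palindrome, CCCNNNGGG, the same arms with a longer spacer, CACCTG on either strand, an E-box of the kind E2A binds, and the octamer ATTTGCAT. The locations are chr16:16863986-16864235 (minus strand) for Igll1, chr16:16869256-16869505 (minus strand) for Vpreb1, chr16:17980315-17980564 (plus strand) for Vpreb2 and chr10:75948050-75948299 (plus strand) for Vpreb3.
Igll1: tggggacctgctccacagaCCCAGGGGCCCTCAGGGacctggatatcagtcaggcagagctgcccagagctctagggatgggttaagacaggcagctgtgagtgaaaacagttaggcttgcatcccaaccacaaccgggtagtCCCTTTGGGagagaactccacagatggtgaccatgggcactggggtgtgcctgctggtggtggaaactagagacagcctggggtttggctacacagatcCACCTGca
Vpreb1: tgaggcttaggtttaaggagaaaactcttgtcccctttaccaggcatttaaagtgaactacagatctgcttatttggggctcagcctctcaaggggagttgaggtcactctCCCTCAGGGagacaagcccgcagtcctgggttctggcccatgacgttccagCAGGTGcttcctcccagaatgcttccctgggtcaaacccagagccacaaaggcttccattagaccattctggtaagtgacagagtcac
Vpreb2: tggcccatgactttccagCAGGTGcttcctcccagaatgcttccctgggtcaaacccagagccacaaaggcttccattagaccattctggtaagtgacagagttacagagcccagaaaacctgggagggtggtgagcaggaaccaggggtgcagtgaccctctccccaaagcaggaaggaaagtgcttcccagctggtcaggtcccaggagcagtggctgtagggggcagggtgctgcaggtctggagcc
Vpreb3: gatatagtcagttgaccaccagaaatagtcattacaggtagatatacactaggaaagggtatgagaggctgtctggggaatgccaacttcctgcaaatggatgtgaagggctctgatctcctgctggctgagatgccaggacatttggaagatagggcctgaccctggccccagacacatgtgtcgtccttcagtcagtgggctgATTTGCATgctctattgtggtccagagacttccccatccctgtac

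Motifs were searched on both strands from 250 bases before to 50 after the start site, in these promoters and in all 32851 promoters of the table. The full EBF1 palindrome, which adds T before and A after this core, was in none of the 4 and in 0.904% of all promoters. CCCNNGGG occurred once, in Igll1, with its first base at -231 from the start site, and was in 13.7% of all promoters. CCCNNNGGG, chosen after the sequences were seen, occurred at -223 and -107 in Igll1 and at -139 in Vpreb1, and was in 12.7% of all. The first of these lies directly beside the CCCNNGGG match, so that the 2 form 1 run of capitals. CACCTG or its complement was in Igll1 (at -8), Vpreb1 (-88) and Vpreb2 (-232), against 20.2% of all. The octamer was in Vpreb3 (-45), against 1.74% of all. A match describes letters in a window and not a bound site.

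Accessibility at the surrogate light chain genes was lower after dTAG-13 in both lines, and no region was called higher, nor was any higher at an unadjusted p under 0.05. Fewer cells with an open region and less opening per cell cannot be told apart in bulk libraries. In the authors' deposited table of EBF1-dTAG_C, 7 of 14 regions fell at an edgeR adjusted p under 0.05, against 6.62% of all regions of that table. None rose, against 0.308% of all, and the other 7 passed the test in neither direction. In the authors' deposited table of EBF1-dTAG_N, 12 of 14 fell, against 18.5% of all regions, and 0 rose, against 18.8%. The median log2 fold change of the 14 regions (dTAG-13 over DMSO) was -0.92 in EBF1-dTAG_C, where that of all regions was 0.09, and -0.94 in EBF1-dTAG_N, where that of all regions was 0.17 (both from the authors' deposited tables). In each line 13 of 14 regions had a log2 fold change below 0, as did 40.6% of all regions in EBF1-dTAG_C and 37.1% in EBF1-dTAG_N. Falls with a log2 fold change of -1 or lower numbered 7 of 14 in EBF1-dTAG_C, against 6.13% of all regions, and 7 of 14 in EBF1-dTAG_N, against 14.9%. The falls covered all 4 genes in both lines: 2 of 4 regions of Igll1, 1 of 1 of Vpreb1, 3 of 5 of Vpreb2 and 1 of 4 of Vpreb3 in EBF1-dTAG_C. In EBF1-dTAG_N they were 3 of 4, 1 of 1, 4 of 5 and 4 of 4 in the same order of genes. The only region of Vpreb1 is its promoter, which shares sequence with that of Vpreb2 (described below), so its value is uncertain. The p-values of the lines cannot be set side by side, since the deposited test of EBF1-dTAG_N behaved as if its spread had been pooled over regions (denominator degrees of freedom 110386, against 11.2 in EBF1-dTAG_C).

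**Figure D1:**
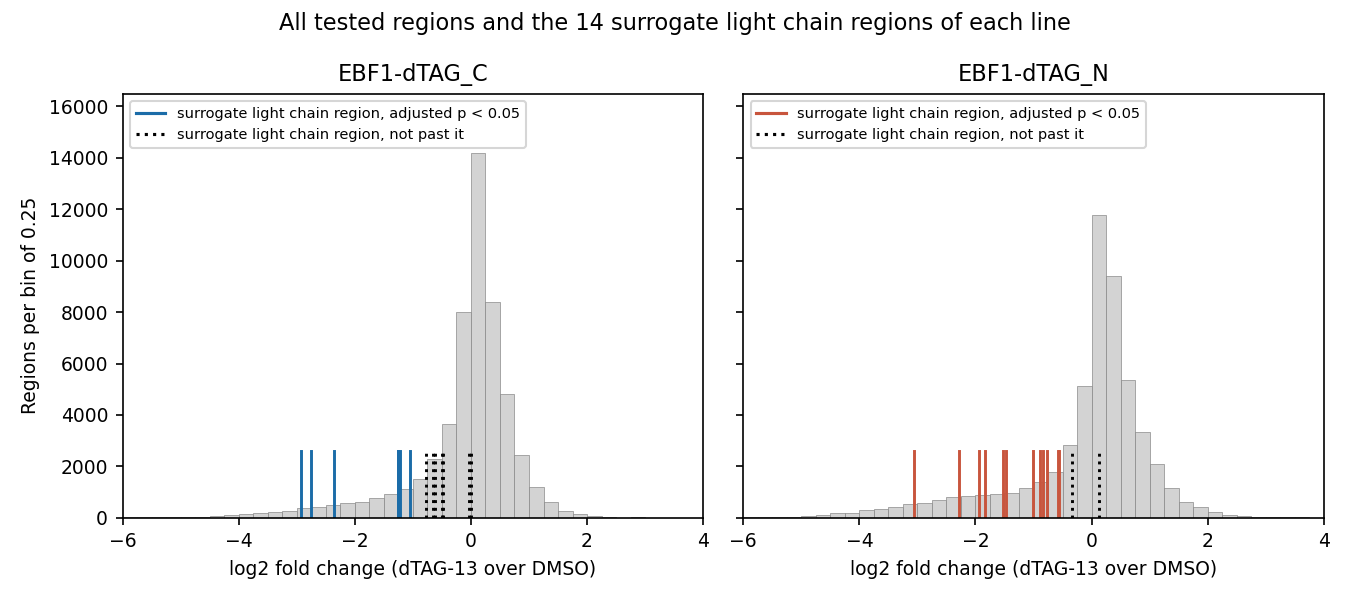
Number of regions (vertical axis) per bin of log2 fold change, dTAG-13 over DMSO (horizontal axis), for all regions of each line in grey, with the surrogate light chain regions as vertical lines of arbitrary height. Coloured lines are the 7 regions of EBF1-dTAG_C and the 12 of EBF1-dTAG_N that fell, dotted lines those that did not pass the test, and all but 1 in each line sit left of 0.

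Peaks held by both DMSO lists and lost from both dTAG-13 lists were about as rare at these genes as over all regions. How many peaks were lower depended on the measure of height. Of the 14 regions, 10 in EBF1-dTAG_C and 11 in EBF1-dTAG_N had a peak in all 4 lists of their line. A peak that both DMSO lists held and both dTAG-13 lists lacked was found at 1 region in EBF1-dTAG_C, against 8.46% of all regions, and at 1 in EBF1-dTAG_N, against 10.3%. That region was the one 1.8 kb upstream of Igll1 in EBF1-dTAG_C and the one 2.2 kb downstream of the Vpreb3 start in EBF1-dTAG_N. Both were among the weakest peaks of their DMSO lists, where at least 99.9% of peaks had a higher fold enrichment. Their fold enrichments were 2.56 and 3.06 at the Igll1 region and 2.90 and 2.63 at the Vpreb3 region. No peak of any library within 20 kb of the 4 genes lay outside the tested regions. To compare libraries, the pileup at each peak's summit was recovered from its deposited fold enrichment and p-value and divided by the lowest background pileup of its list, taken as a measure of relative depth. That lowest background averaged 0.244 ± 0.020 after dTAG-13 and 0.337 ± 0.009 with DMSO in EBF1-dTAG_C, and 0.360 ± 0.017 and 0.405 ± 0.006 in the same order in EBF1-dTAG_N (SD, n = 2 each). This depth-scaled summit height was lower in both dTAG-13 libraries than in both DMSO libraries at 8 of the 10 regions of EBF1-dTAG_C and at 10 of the 11 of EBF1-dTAG_N, and the libraries overlapped at the rest. On the deposited fold enrichment over local background, both dTAG-13 libraries were below both DMSO libraries at 5 of the 10 regions of EBF1-dTAG_C, above them at 2 and overlapping at 3. In EBF1-dTAG_N they were below at 4 of the 11, above at 2 and overlapping at 5. With 2 libraries against 2, an exact two-sided permutation test cannot go below p = 0.33, so these heights are given without a test. The share of all regions whose libraries were apart in this way was not counted on either measure. The counts therefore describe these peaks only and do not set them apart from other regions.

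The Igll1 promoter had the largest fall of the 4 genes. Its region (chr16:16863837-16864407 in EBF1-dTAG_C, GRCm38) spans 571 bp, is centred 137 bp upstream of the start site and covers the whole promoter window. The deposited fold enrichment of its peak over local background was 4.04 and 5.68 in the dTAG-13 libraries of EBF1-dTAG_C, against 18.6 and 17.1 in the DMSO libraries. The depth-scaled summit height was 74.2 and 109 after dTAG-13, against 919 and 835 with DMSO. In EBF1-dTAG_N the height was 94.9 and 110.2 after dTAG-13, against 943 and 846 with DMSO. The groups were far apart in both lines, with a mean height lower by a factor of 9.60 in EBF1-dTAG_C, and in EBF1-dTAG_N by a factor of 8.72. The peak was also narrower, at 199 and 255 bp in the dTAG-13 libraries of EBF1-dTAG_C, against 558 and 571 bp in the DMSO libraries. Its log2 fold change in the authors' deposited table of EBF1-dTAG_C was -2.92 (approximate SE 0.17), or 7.59-fold lower, with an edgeR adjusted p of 4.01e-06 and rank 35 of 54239 by p. For EBF1-dTAG_N (chr16:16863825-16864407) the authors' deposited table gave -3.05 (approximate SE 0.08), or 8.30-fold lower, with rank 8 of 55193. Peak summits stood at -129 and -137 from the start site after dTAG-13 and at -126 and -130 with DMSO in EBF1-dTAG_C. In EBF1-dTAG_N they stood at -97 and -126 after dTAG-13 and at -130 in both DMSO libraries. The CCCNNNGGG match at -107, of a motif chosen after the sequences were seen, starts near these summits, and a link was not tested.

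The regions upstream of the Igll1 promoter changed less. The region 1.4 kb upstream (chr16:16865210-16865599 in EBF1-dTAG_C) had a depth-scaled height of 301 and 256 after dTAG-13 in EBF1-dTAG_C, against 302 and 339 with DMSO, so that the groups almost touched. In EBF1-dTAG_N the height was 204 and 253 after dTAG-13, against 333 and 332 with DMSO. Its log2 fold change was -0.48 (approximate SE 0.14, edgeR adjusted p = 0.0688) in the authors' deposited table of EBF1-dTAG_C, which missed the threshold. When the folds were centred on the table's median, the value was -0.56 with an adjusted p of 0.0285. It was -0.55 (approximate SE 0.10, adjusted p = 1.19e-07) in the authors' deposited table of EBF1-dTAG_N, a 1.47-fold fall. The deposited fold enrichment of the same peak moved the other way, with 12.4 and 10.8 after dTAG-13 against 5.13 and 6.01 with DMSO in EBF1-dTAG_C, and 12.1 and 13.2 against 5.87 and 6.18 in EBF1-dTAG_N. Fold enrichment divides the summit by local background, and that background, scaled for depth, was 20.2 and 20.1 after dTAG-13 against 56.6 and 53.8 with DMSO in EBF1-dTAG_C. In EBF1-dTAG_N it was 14.2 and 16.7 against 54.7 and 51.6. Fold enrichment was higher in both dTAG-13 libraries than in both DMSO libraries at 2 regions in each line, this one and the one 1.3 kb upstream of Vpreb2, and at both the scaled height was lower in both dTAG-13 libraries. The region 1.8 kb upstream of Igll1 (chr16:16865712-16865883) was in the EBF1-dTAG_C table alone. Its peak had a fold enrichment of 2.56 and 3.06 in the DMSO lists and was in neither dTAG-13 list. Its log2 fold change in the authors' deposited table was -1.06 (approximate SE 0.20, edgeR adjusted p = 0.00630), a 2.08-fold fall.

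**Figure D2:**
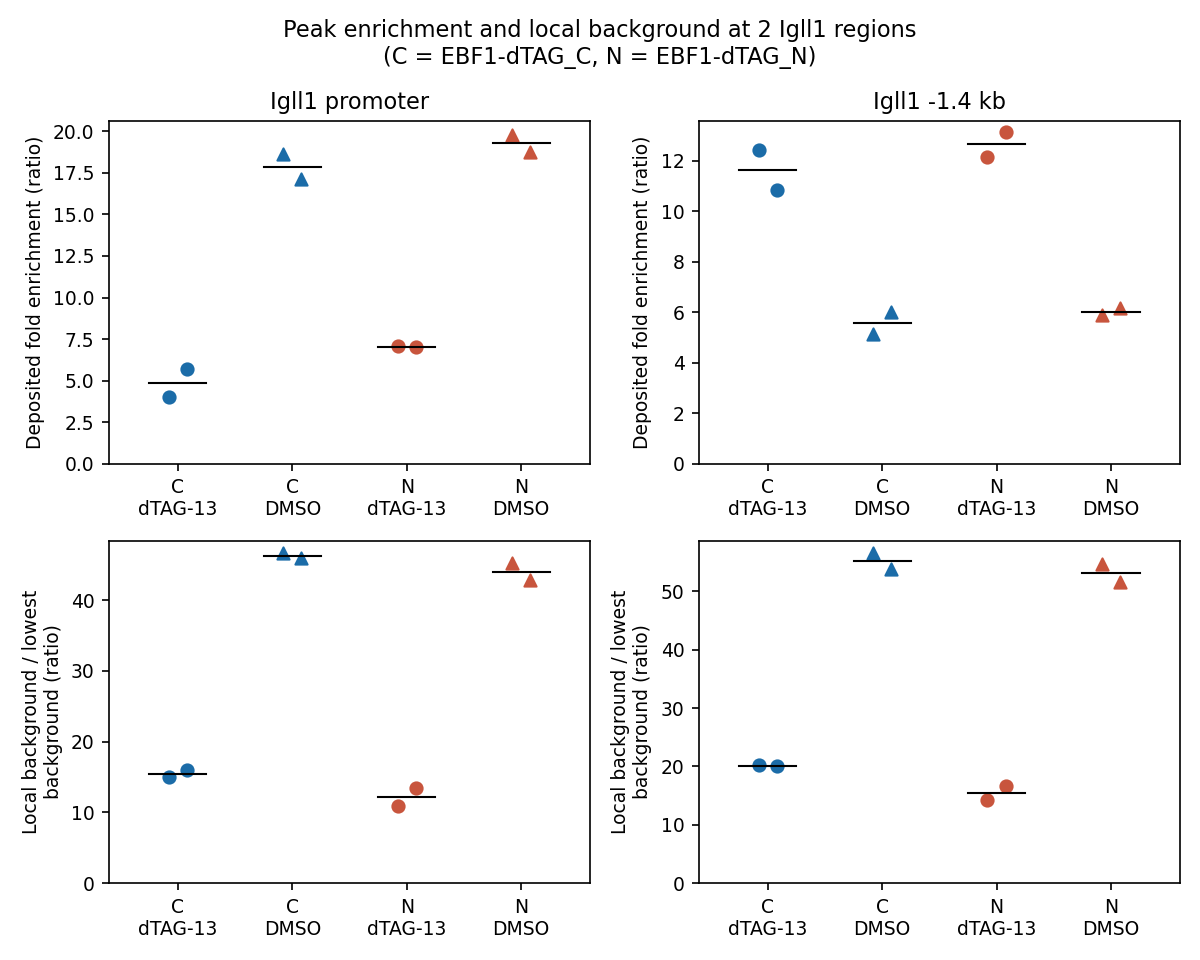
Deposited fold enrichment (top) and local background divided by the lowest background of the list (bottom) at the Igll1 promoter (left) and 1.4 kb upstream (right). Each point is a library, circles are dTAG-13, triangles are DMSO, and lines are means of 2 libraries. Enrichment is lower after dTAG-13 at the promoter and higher 1.4 kb upstream, while the background is lower after dTAG-13 at both.

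Downstream of Igll1 a weak region of EBF1-dTAG_N was the single one called. The region 8.9 kb past the start site (chr16:16854934-16855214 in EBF1-dTAG_C), outside the gene, had a scaled height of 56.7 and 96.9 after dTAG-13 against 78.5 and 42.3 with DMSO in EBF1-dTAG_C, and the groups overlapped. In EBF1-dTAG_N it was 54.6 and 67.2 against 90.6 and 82.4. Its log2 fold change was 0.00 (approximate SE 0.29, edgeR adjusted p = 0.999) in the authors' deposited table of EBF1-dTAG_C and -0.33 (approximate SE 0.24, adjusted p = 0.280) in that of EBF1-dTAG_N. That weak region, 7.3 kb past the start site (chr16:16856560-16856756), was in the EBF1-dTAG_N table alone, with a peak in 1 DMSO list and in no dTAG-13 list. Its log2 fold change in the authors' deposited table was -1.94 (approximate SE 0.57, edgeR adjusted p = 0.00310).

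Vpreb1 lies 5.3 kb upstream of the Igll1 start on the same strand and had a single region, at its promoter (chr16:16869137-16869544 in EBF1-dTAG_C, chr16:16869160-16869528 in EBF1-dTAG_N). Its scaled height was 218 and 178 after dTAG-13 against 363 and 318 with DMSO in EBF1-dTAG_C. In EBF1-dTAG_N it was 135 and 129 against 365 and 344. The groups were apart in both lines, by less than at Igll1. The log2 fold change in the authors' deposited table of EBF1-dTAG_C was -1.25 (approximate SE 0.15, edgeR adjusted p = 0.000283), or 2.38-fold lower. For EBF1-dTAG_N the authors' deposited table gave -1.47 (approximate SE 0.11, adjusted p = 2.81e-40), or 2.77-fold lower. The next gene, Top3b, a DNA topoisomerase gene whose span lies 1.5 kb from that of Vpreb1, had a region with a log2 fold change of 0.03 (adjusted p = 0.967) in the authors' deposited table of EBF1-dTAG_C and -0.07 (adjusted p = 0.558) in that of EBF1-dTAG_N.

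Vpreb2 lost accessibility at its promoter and at a distal region upstream. The promoter region (chr16:17980124-17980598 in EBF1-dTAG_C, chr16:17980111-17980601 in EBF1-dTAG_N) lies inside the RefSeq gene span, which begins upstream of the start site used here. Its scaled height was 65.5 and 42.6 after dTAG-13 against 343 and 448 with DMSO in EBF1-dTAG_C, and 69.0 and 110.2 against 438 and 394 in EBF1-dTAG_N. Both dTAG-13 libraries were well below both DMSO libraries in each line. The log2 fold change in the authors' deposited table of EBF1-dTAG_C was -2.76 (approximate SE 0.17, edgeR adjusted p = 4.79e-06), or 6.76-fold lower. The value in the authors' deposited table of EBF1-dTAG_N was -2.29 (approximate SE 0.11, adjusted p = 2.20e-94), or 4.90-fold lower.

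The distal region of Vpreb2, centred 11.1 kb upstream of the start site and 10.0 kb outside the gene (chr16:17969084-17969872 in EBF1-dTAG_C, chr16:17969071-17969877 in EBF1-dTAG_N), had the smallest p of the 14 regions in EBF1-dTAG_C. Its scaled height was 87.3 and 58.1 after dTAG-13 against 532 and 457 with DMSO in EBF1-dTAG_C, and 112 and 110.2 against 521 and 527 in EBF1-dTAG_N. Where each DMSO list had 1 peak, both dTAG-13 lists of EBF1-dTAG_C and 1 of EBF1-dTAG_N had 2 smaller ones. The log2 fold change in the authors' deposited table of EBF1-dTAG_C was -2.35 (approximate SE 0.13, edgeR adjusted p = 3.18e-06, rank 26 by p), or 5.1-fold lower. In the authors' deposited table of EBF1-dTAG_N it was -1.84 (approximate SE 0.08, adjusted p = 3.45e-103), or 3.59-fold lower. Of all regions of EBF1-dTAG_C, 5.40% had a higher mean abundance in the authors' deposited table.

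The weaker regions of Vpreb2 fell less or did not pass the test. The region 1.3 kb upstream of the start site (chr16:17979050-17979552 in EBF1-dTAG_C) had a log2 fold change of -1.26 (approximate SE 0.24, edgeR adjusted p = 0.00604) in the authors' deposited table of EBF1-dTAG_C and -0.88 (approximate SE 0.13, adjusted p = 1.69e-10) in that of EBF1-dTAG_N. The region 6.3 kb downstream (chr16:17986628-17987056) had -0.66 (approximate SE 0.23, adjusted p = 0.148) in the authors' deposited table of EBF1-dTAG_C and -0.58 (approximate SE 0.19, adjusted p = 0.00795) in that of EBF1-dTAG_N. Its scaled height was 48.0 and 50.4 after dTAG-13 against 142 and 72.6 with DMSO in EBF1-dTAG_C, so the DMSO libraries differed widely from each other. In EBF1-dTAG_N, where the fall was called, it was 83.4 and 34.9 against 83.2 and 104.8, and the groups overlapped. A region 4.0 kb downstream in EBF1-dTAG_C (log2 fold change -0.03, adjusted p = 0.987) and one 6.8 kb upstream in EBF1-dTAG_N (0.13, adjusted p = 0.777) did not pass the test in the authors' deposited tables, each with a peak in 1 dTAG-13 list only.

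**Figure D3:**
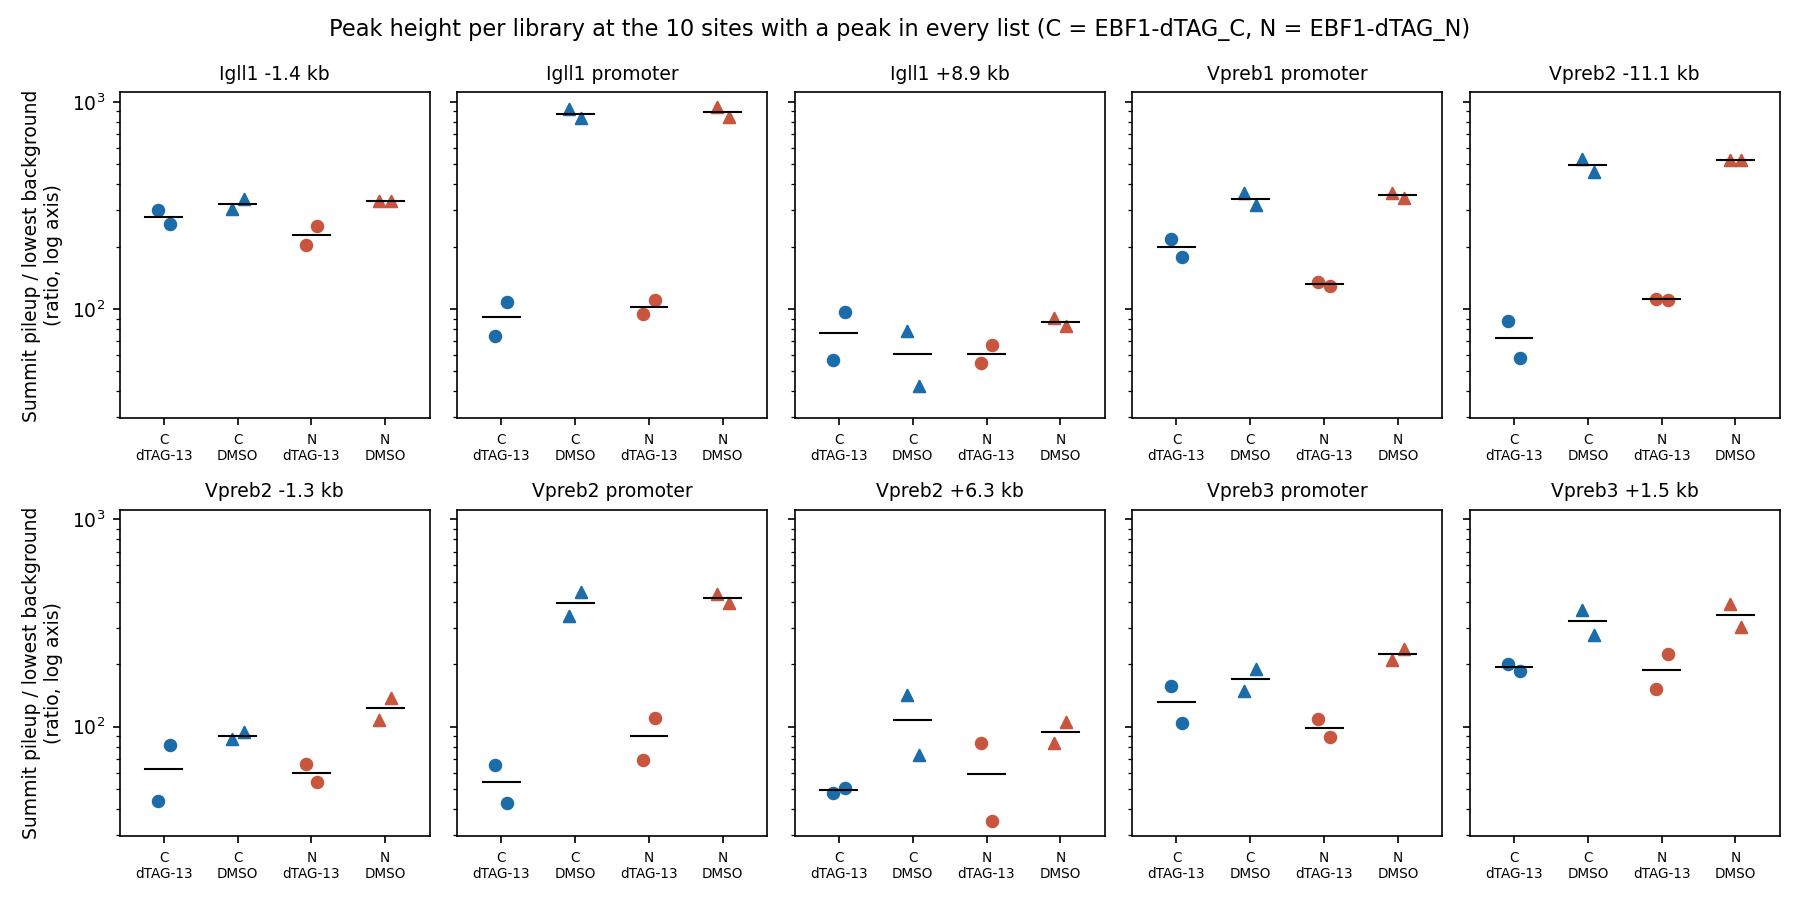
Summit pileup divided by the lowest background pileup of the list (vertical axis, log scale) at the 10 sites with a peak in all 8 libraries. Each point is a library, circles are dTAG-13, triangles are DMSO, and lines are means of 2 libraries. The dTAG-13 libraries sit well below the DMSO libraries at the Igll1 and Vpreb2 promoters and 11.1 kb upstream of Vpreb2, and overlap with them at Igll1 +8.9 kb and the Vpreb3 promoter in EBF1-dTAG_C and at Vpreb2 +6.3 kb in EBF1-dTAG_N.

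The Vpreb1 and Vpreb2 promoters share sequence, which limits how far their values can be told apart. Positions -106 to 50 of Vpreb1 (with no position 0) aligned without a gap to positions -250 to -95 of Vpreb2, with 153 of 156 bases identical (98.1%) and a longest exact run of 91 bases. All 16 peak summits, 8 at each promoter, fell inside this stretch. Translated to Vpreb2 positions, 3 of the 8 Vpreb1 summits and 4 of the 8 Vpreb2 summits stood on the same base, -214 in Vpreb2 and -70 in Vpreb1. The CAGGTG match of the sequences above, at -88 in Vpreb1 and -232 in Vpreb2, is the same E-box in both copies. How reads with several equal alignments were placed is not given in the sources used here, so reads of this stretch may have been split between the genes and both values are uncertain. Only the promoter windows were aligned, and the stretch ends at a window edge in both genes, so its full length is unknown. The regions reach beyond the aligned stretch on both sides, where shared sequence was not checked. The log2 fold change of Vpreb1 was nearer to 0 than that of Vpreb2 in each line.

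Vpreb3, on chromosome 10, had the log2 fold change nearest to 0 of the 4 promoters in both lines, a difference between regions that was not tested. Its promoter region (chr10:75948136-75948423 in EBF1-dTAG_C, chr10:75948135-75948438 in EBF1-dTAG_N) had a scaled height of 157 and 105 after dTAG-13 against 148 and 190.5 with DMSO in EBF1-dTAG_C, and the groups overlapped. In EBF1-dTAG_N it was 109 and 88.7 against 211 and 237, with no overlap. The log2 fold change was -0.49 (approximate SE 0.22, edgeR adjusted p = 0.291) in the authors' deposited table of EBF1-dTAG_C and -0.83 (approximate SE 0.15, adjusted p = 4.16e-07) in that of EBF1-dTAG_N. Peak summits stood between -40 and -21 from the start site, beside the octamer match at -45. That start site lies inside the RefSeq span of Vpreb3, which runs from -5.3 to 1.4 kb of it.

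The strongest region of Vpreb3 lay just past the end of the gene, 1.5 kb from the start site (chr10:75949618-75950072 in EBF1-dTAG_C, chr10:75949518-75950051 in EBF1-dTAG_N). Its scaled height was 201 and 186 after dTAG-13 against 366 and 278 with DMSO in EBF1-dTAG_C, and 152 and 223 against 389 and 302 in EBF1-dTAG_N. The groups did not overlap in either line. The log2 fold change was -1.22 (approximate SE 0.14, edgeR adjusted p = 0.000293, 2.32-fold lower) in the authors' deposited table of EBF1-dTAG_C. It was -1.52 (approximate SE 0.09, adjusted p = 2.16e-60, 2.88-fold lower) in the authors' deposited table of EBF1-dTAG_N. The regions 2.2 and 2.6 kb from the start site had -0.77 (adjusted p = 0.210) and -0.62 (adjusted p = 0.118) in the authors' deposited table of EBF1-dTAG_C. They had, in the authors' deposited table of EBF1-dTAG_N, -1.01 (adjusted p = 2.22e-10) and -0.77 (adjusted p = 1.09e-09).

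A strongly changed region near Vpreb3 belongs by the rule to another gene. It lies at -10.2 kb from the Vpreb3 start (chr10:75937884-75938241 in EBF1-dTAG_C), inside the predicted gene Gm867. Its log2 fold change in the authors' deposited table of EBF1-dTAG_C was -2.58 (approximate SE 0.20, edgeR adjusted p = 1.92e-05), or 5.98-fold lower. Both DMSO lists of that line held its peak and both dTAG-13 lists lacked it. In the authors' deposited table of EBF1-dTAG_N it was -2.07 (approximate SE 0.14, adjusted p = 3.23e-46), or 4.20-fold lower, and all 4 lists of that line held the peak. Of 20 other protein-coding genes within 100 kb of the 4 genes, 15 had a region, and 2 of their 34 regions fell (5.88%) and 0 rose in EBF1-dTAG_C. The second was at Ppm1f, a protein phosphatase gene, with -0.77 (adjusted p = 0.00152) in the authors' deposited table of EBF1-dTAG_C. In EBF1-dTAG_N, 9 of 46 fell (19.6%) and 5 rose (10.9%, against 18.8% of all regions). The shares that fell are near those of all regions, 6.62% in EBF1-dTAG_C and 18.5% in EBF1-dTAG_N.

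The lines were compared by the difference of their log2 fold changes, EBF1-dTAG_C minus EBF1-dTAG_N, in an approximate Wald test adjusted over 43350 overlapping region pairs. None of the 12 paired regions passed this test, against 0.0461% of all pairs, and the adjusted p ran from 0.561 to 0.991. An unadjusted p under 0.05 was found at 2 of the 12, both of Vpreb2. The share of all pairs under that p was not counted, so no line difference is drawn from these 2. At the distal Vpreb2 region the difference was -0.51 (95% interval -0.83 to -0.18, adjusted p = 0.561), and at the Vpreb2 promoter -0.47 (95% interval -0.89 to -0.05, adjusted p = 0.886). At the Igll1 promoter it was 0.13 (95% interval -0.27 to 0.53) and at the Vpreb1 promoter 0.22 (95% interval -0.15 to 0.60). All 4 paired regions of Vpreb2 had the lower log2 fold change in EBF1-dTAG_C, and all 8 of the other genes had it in EBF1-dTAG_N. With folds centred on each table's median the split was 3 and 9, since the difference at Vpreb2 +6.3 kb became 0.00087. The intervals leave room for differences of this size, and a p that misses the threshold does not show that the lines respond alike. These intervals rest partly on the SEs of EBF1-dTAG_N, which do not come from the spread at a region, and may be too narrow. With those SEs widened to the degrees of freedom of EBF1-dTAG_C, the Wald test gave an adjusted p of 0.999 at the distal Vpreb2 region.

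**Figure D4:**
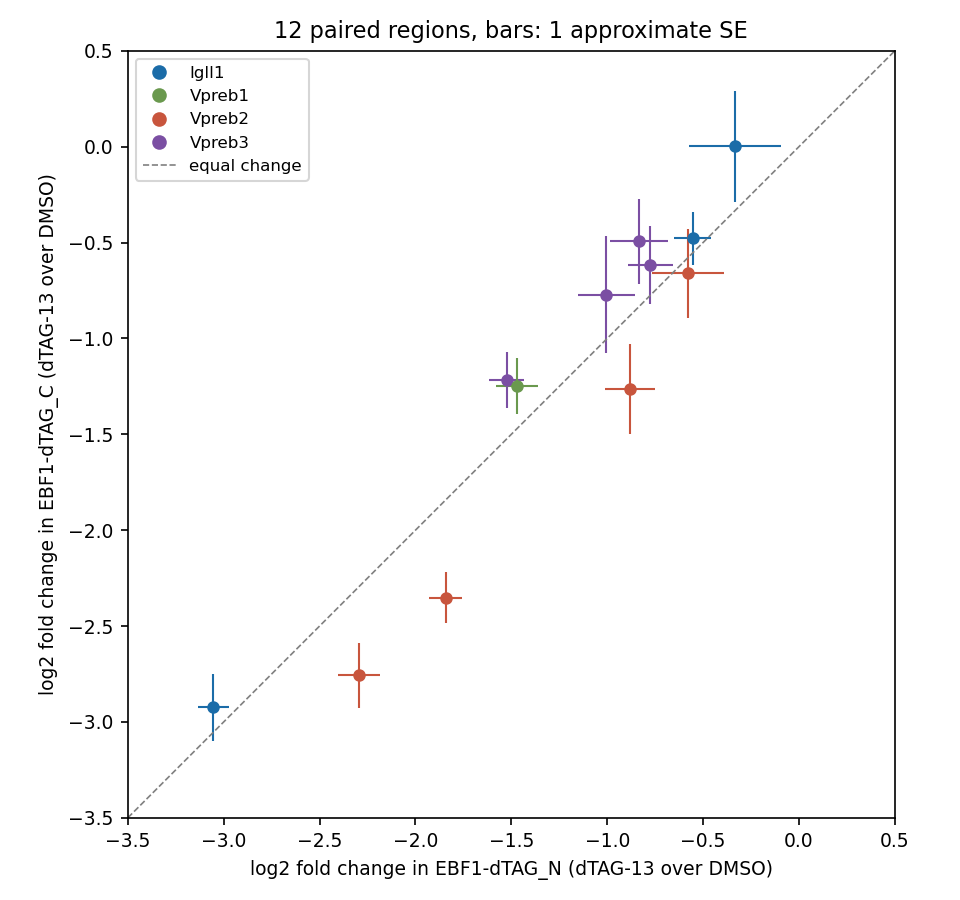
Log2 fold change, dTAG-13 over DMSO, in EBF1-dTAG_C (vertical axis) against EBF1-dTAG_N (horizontal axis) at the 12 paired regions, coloured by gene, with bars of 1 approximate SE and a dashed line of equal change. The 4 Vpreb2 points lie below the line and the other 8 above it, and centring the folds puts 1 of the 4 on the line.

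Other genes of the pre-B cell receptor and of its regulators were counted as a setting. Of 16 receptor and signalling genes, 15 matched a protein-coding gene of the annotation (Ighm did not). In EBF1-dTAG_C, 11 of the 15 had a region that fell and 1 had a region that rose, over 151 regions of which 19 fell (12.6%, against 6.62% of all regions) and 1 rose, with a median log2 fold change of 0.04. In EBF1-dTAG_N, 13 of 14 with a region had a fall and 9 a rise, over 159 regions of which 41 fell (25.8%, against 18.5% of all) and 34 rose (21.4%, against 18.8%). Of all genes with a region, 16.5% had a fall in EBF1-dTAG_C and 34.4% in EBF1-dTAG_N, but with a median of 2 regions a gene, whereas the receptor genes had a median of 9 in EBF1-dTAG_C and the transcription factor genes a median of 14. The counts of genes therefore cannot be read against those shares. The regions of smallest p in EBF1-dTAG_C, with log2 fold changes from the authors' deposited table, were at Pik3cd, a phosphoinositide kinase subunit (-2.25, edgeR adjusted p = 6.33e-05), and Pik3ap1, its adaptor BCAP (-1.42, adjusted p = 7.62e-05). The authors' deposited table also gave -1.93 (edgeR adjusted p = 0.000236) at Plcg2, phospholipase C gamma. Of 13 transcription factor genes, 9 had a fall and 0 a rise in EBF1-dTAG_C (15 of 186 regions fell, or 8.06%), and 12 had a fall and 11 a rise in EBF1-dTAG_N (52 of 216 regions fell, or 24.1%, and 46 rose, or 21.3%). Of all regions, 6.62% fell in EBF1-dTAG_C, and 18.5% fell and 18.8% rose in EBF1-dTAG_N. The shares of the transcription factor genes that fell were somewhat above these, a difference that was not tested. Each value named is that of the 1 region of smallest p among several at the gene. The authors' deposited table of EBF1-dTAG_C gave -1.96 (adjusted p = 1.51e-05) at Tcf3, which encodes E2A, and -4.35 (adjusted p = 0.000173) at Runx1, a haematopoietic regulator with 21 regions, of which 1 fell. The same authors' deposited table gave -3.26 (adjusted p = 0.000710) at Irf8, an interferon regulatory factor, and -2.93 (adjusted p = 0.00142) at Ikzf3, which encodes Aiolos.

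The distal Vpreb2 region was set against all 5288 region pairs of like abundance (within 1 log2 CPM in both tables), by the distance between their log2 fold changes over the 2 lines. The 5 nearest of other genes were at Hand1 (distance 0.277), Txnrd3 (0.310), Col26a1 (0.312), Wdfy3 (0.327) and St6gal1 (0.350). The Hand1 region had a log2 fold change of -2.24 in the authors' deposited table of EBF1-dTAG_C and of -2.10 in that of EBF1-dTAG_N. Likeness over 2 lines describes the size of a change only.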

How the data were processed

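ATAC-seq libraries were grouped by line and treatment from their labels. Per the submitters' processing notes, the tools were MACS2 2.2.7.1, edgeR 3.32.0, Bowtie2 2.3.5.1, deepTools 3.3.2 and SAMtools 1.10, with GRCm38 (mm10). The sources used here do not give read filters, the Tn5 shift or library scaling. The authors deposited, per line, a table with a p-value, an adjusted p-value, an F score, log2 fold changes and mean log2 CPM per region, and no values per library. They also deposited 1 peak list per library, with a score, a fold enrichment (ratio) and −log10 p-values and q-values. Fold enrichments of peaks are the authors' values. The regions and lists were chosen with earlier results of these data known.

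Repeated entries (8 and 12) were counted once. A region was called at an adjusted p under 0.05, and a peak counted as present at an overlap of 1 bp. The direction of fold changes was checked against the peak lists. The approximate SE is the absolute log2 fold change over the square root of F. The test of the difference between the lines used these SEs and Satterthwaite degrees of freedom, and was tested on simulated data. Summit pileup and background were solved from fold enrichment, (pileup + 1) / (background + 1), and the Poisson p-value, which succeeded for 100% of 1500 peaks per list. Python 3.11.15, SciPy 1.17.1, pandas 2.3.3 and Biopython 1.88 were used.

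Named beyond the 4 genes were protein-coding neighbours within 100 kb, 2 gene lists with the 4 genes of smallest p in EBF1-dTAG_C each, and the 5 genes of most like change. The values of 1 gene of these lists are not reported here. Alternatives were centring, other thresholds and degrees of freedom, repeated entries, distance, abundance, peak and overlap filters and left-out libraries.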

Additional observations from a re-analysis of the deposited data

How the results depend on the processing

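The 7 falls in EBF1-dTAG_C numbered 7 to 8 under every alternative run, and 0 regions rose in either line under any of them. With folds centred on the table median, which moved log2 values by 0.09 in EBF1-dTAG_C and 0.17 in EBF1-dTAG_N, 8 regions fell in EBF1-dTAG_C (7.39% of all) and 12 in EBF1-dTAG_N (20.8% of all). The added call in EBF1-dTAG_C was the region 1.4 kb upstream of Igll1. Centring lowered the share of all regions that rose in EBF1-dTAG_N to 7.98%, against 18.8% as deposited. The 12 falls in EBF1-dTAG_N were 7 when log2 fold changes between -1 and 1 were left out. The count of regions whose peak both DMSO lists held and both dTAG-13 lists lacked in EBF1-dTAG_N was 0 with peaks under a −log10 q of 5 removed and 0 with equal numbers of best peaks. When each library was left out in turn this count ran from 1 to 2 in EBF1-dTAG_C (2 without dTAG-13 replicate 2 and 2 without DMSO replicate 2) and from 1 to 2 in EBF1-dTAG_N (2 without DMSO replicate 2). No paired region passed the test of a difference between the lines under the 3 alternatives run for it. Of single values, 3 moved on centring, all near 0 (Igll1 +8.9 kb in EBF1-dTAG_C to -0.08, Vpreb2 -6.8 kb in EBF1-dTAG_N to -0.04, and the line difference at Vpreb2 +6.3 kb to 0.00087).

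No paired analysis was possible because the deposited tables hold no values per library. The numbers inside the peak names of EBF1-dTAG_C also differ from the replicate numbers of the titles. Folds cannot be refitted without a library, p-values of EBF1-dTAG_N do not rest on the spread at a region, and the approximate SE and the depth scaling are reconstructions. The 2 libraries per condition limit every per-library comparison.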

Other observations

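Around Vpreb3 the authors' deposited table of EBF1-dTAG_N held regions of neighbouring genes that fell further than any region of Vpreb3 itself. The region nearest to Gm5134 at chr10:75990554-75990937 had a log2 fold change of -4.15 (edgeR adjusted p = 2.14e-21). It is 1 of 7 regions of that gene, of which 2 fell and 2 rose, with a median of 0.46 and a highest value of 1.00 in the authors' deposited table. The regions at Derl3 (chr10:75886926-75887243, -2.70, adjusted p = 9.03e-09) and Smarcb1 (chr10:75898998-75899329, -2.42, adjusted p = 0.000165) also fell in the authors' deposited table of EBF1-dTAG_N, each the single one that fell, of 4 regions at Derl3 and of 2 at Smarcb1. Both DMSO lists held a peak at each of them and both dTAG-13 lists lacked it. The approximate SE in EBF1-dTAG_N was 0.42 at the Gm5134 region, 0.44 at Derl3 and 0.58 at Smarcb1. These 3 regions were named after their values were seen. In the authors' deposited table of EBF1-dTAG_C no region of these genes was called. The lowest log2 fold changes there were -0.32 at Derl3, -0.28 at Smarcb1 and 0.01 at Gm5134.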
